A study of Mus musculus with 2 samples.

Results

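The solute carriers, written Slc in mouse, are membrane proteins that move sugars, amino acids, ions, metals, vitamins and metabolites across the cell surface and across the membranes of mitochondria, Golgi, lysosomes and secretory vesicles. Members were taken as every gene whose symbol begins with Slc and a digit and that had a value above 0 in 5% or more of the cells of at least 1 library. That gave 168 of the 230 such genes in the table, which holds 13373 genes in all, and 10459 genes of every kind met the same limit. Of the 168, 157 passed the limit in both libraries, 8 in the DBZ library alone and 3 in the DMSO library alone. Just inside the limit lay Slc23a3, Slc36a1, Slc35e4 and Slc22a17, whose higher share of cells ran from 5.06% for Slc22a17 to 5.58% for Slc23a3. Just outside lay Slc18b1, Slc27a3, Slc12a8 and Slc22a3, from 4.44% for Slc22a3 to 4.59% for Slc18b1.

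The measurements are single-cell RNA sequencing of Apc-mutant mouse intestinal organoids from C57Bl animals aged 3 to 4 months. Organoids are small cultures of intestinal epithelium, and Apc is a tumour suppressor that restrains Wnt signalling. The library labelled DBZ came from organoids given DBZ, an inhibitor of gamma-secretase, the enzyme that activates Notch receptors, and the other library came from organoids given DMSO, the vehicle. The labels' shared treatment text lists 10 uM DBZ and 300 nM 4-OH-tamoxifen for both samples, and the sample titles were followed. Both groups carry the Apc mutation and none is wild type. How the mutation was made and how many animals were used is not stated in the labels. There was 1 library per treatment, so every difference lacks a replicate check, no test was made, and each statement compares these libraries and not the treatments.

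The table held 1241 DBZ cells and 968 DMSO cells, where the labels speak of 3000 per sample, with medians of 10901 and 11183 UMIs per cell. A UMI, or unique molecular identifier, counts 1 captured transcript. Only 3 cell barcodes occurred in both libraries. Of the markers of other tissues, 0 of 8 immune markers, 3 of 6 endothelial markers and, of 7 fibroblast markers, only Vim were in the table. The summed endothelial level averaged 0.124 per 10000 UMIs in DBZ cells and 0.110 in DMSO cells, and Vim 5.73 in DBZ cells and 11.7 in DMSO cells. Their part in the results was not tested. Summed Paneth cell markers averaged 276 per 10000 UMIs in DBZ cells and 64.3 in DMSO cells. Summed enteroendocrine markers averaged 25.7 in DBZ cells and 6.72 in DMSO cells, and summed proliferation markers 6.40 in DBZ cells and 10.2 in DMSO cells.

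In the intestine, absorptive cells use apical carriers to take up sugars and amino acids and basolateral carriers to pass them on, whereas crypt cells use ion cotransporters for chloride secretion. Secretory cells load granules through vesicular carriers. All cells exchange ATP, phosphate and intermediates with mitochondria through the Slc25 family, and import nucleotide sugars into the Golgi through the Slc35 family.

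Slc transcripts took 98566 UMIs in the DBZ library, 0.610% of all its UMIs, and 77557 in the DMSO library, 0.593%. A median DBZ cell had UMIs of 39 members and a median DMSO cell of 37. With every cell thinned to 5000 UMIs, which left out no cell, these medians were 22 in DBZ cells and 21 in DMSO cells. A gene's level below is its mean over cells per 10000 UMIs. Levels come from tags at transcript ends and so are not scaled by gene length. Its change is the log2 of the DBZ level plus 0.05 over the DMSO level plus 0.05, which understates the change of low genes.

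The change was at least 1.5-fold towards DBZ for 18 members (10.7%), against 8.5% of all genes under the same limit. It was at least 1.5-fold towards DMSO for 8 members (4.76%), against 4.4% of all genes. These shares lie near the background. Changes were also centred on the median gene, which lay at 0.11 over genes in at least 10% of cells. The split was then 14 of 168 members higher and 14 of 168 lower in the DBZ library, against 5.59% and 6.64% of all genes. At a 2-fold limit 9 members were higher (5.36%), against 2.17% of all genes, and 1 was lower (0.595%), against 1.27%. The change was above 0 for 114 members (67.9%), against 63.5% of all genes, and its median was 0.16 over the members and 0.11 over all genes.

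**Figure D1:**
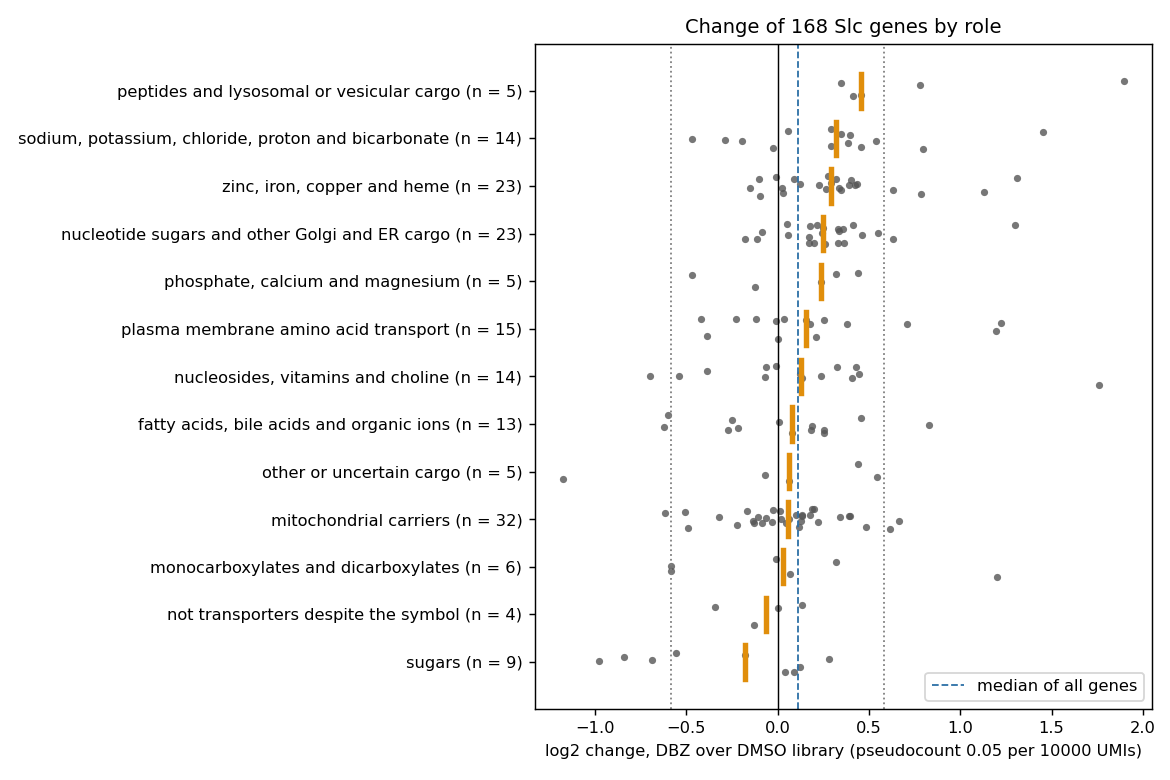
Change of each of the 168 Slc genes (points) between the DBZ and DMSO libraries on the log2 scale, by role, with role medians (orange bars), the median of all genes (dashed line at 0.11) and the 1.5-fold limits (dotted lines). Vesicular and lysosomal carriers have the highest median (0.46) and sugar carriers the lowest (-0.18).

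The counts by role or list below stand beside these shares of all genes: 63.5% above 0, 8.5% past 1.5-fold towards DBZ and 4.4% towards DMSO. Carriers of vesicles and lysosomes were higher in the DBZ library in 5 of 5 members, with a median change of 0.46. Slc18a1, the vesicular monoamine transporter that fills granules of neuroendocrine cells with amines such as serotonin, had the highest change of any member. Its level was 0.433 in DBZ cells and 0.0795 in DMSO cells, from 605 and 96 UMIs, a change of 1.90. The pooled UMI ratio was 2.35 on the log2 scale, with a 95% counting interval of 2.04 to 2.68. Slc17a5, which exports sialic acid from lysosomes, had a level of 0.757 in DBZ cells and 0.421 in DMSO cells, a change of 0.78. Slc38a9, the lysosomal arginine sensor of the mTORC1 pathway, had a change of 0.35. Intervals here and below cover counting error only.

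Metal carriers were mostly higher in the DBZ library, 19 of 23, with a median change of 0.29, and 4 of them passed 1.5-fold. Slc39a8, an importer of zinc and manganese, had a level of 0.486 in DBZ cells and 0.166 in DMSO cells, a change of 1.31. Slc39a14, a related importer that also carries iron, had a level of 0.499 in DBZ cells and 0.201 in DMSO cells, a change of 1.13. Slc30a1, which exports zinc through the plasma membrane, stood at 0.180 in DBZ cells and 0.0833 in DMSO cells, a change of 0.78. The remaining one was the zinc carrier Slc39a9, with a change of 0.63.

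Over all cells the classical intestinal metal carriers differed little. Slc11a2, the apical iron importer, had a level of 0.194 in DBZ cells and 0.195 in DMSO cells. Slc40a1, the iron exporter ferroportin, had 0.113 in DBZ cells and 0.131 in DMSO cells, and Slc39a4, the apical zinc importer, 0.414 in DBZ cells and 0.447 in DMSO cells. With equal weight to the clusters compared below, the changes were 0.08 for Slc11a2, 0.22 for Slc40a1 and 0.37 for Slc39a4. Slc30a2, a vesicular zinc carrier, was the most abundant of the group at 1.80 in DBZ cells and 1.93 in DMSO cells. Within the clusters of cells described below its change ran from -2.11 in cluster 3 to 0.32 in cluster 9, and its counting interval lay below 0 in 4 of 8 clusters and above 0 in 0. Among 18 other genes of iron, zinc and copper handling the median change was -0.03. They included Mt3, a metallothionein that binds zinc, at 3.29 in DBZ cells and 1.29 in DMSO cells, and Hmox1, which breaks down heme, at 0.136 in DBZ cells and 0.347 in DMSO cells.

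Ion carriers were higher in the DBZ library in 10 of 14 members, against 63.5% of all genes, with a median change of 0.32. Slc26a4, the anion exchanger pendrin, had a level of 0.164 in DBZ cells and 0.0284 in DMSO cells, from 231 and 32 UMIs, a change of 1.45. Slc4a7, a sodium-bicarbonate cotransporter, was the lowest of the group at 0.223 in DBZ cells and 0.328 in DMSO cells, a change of -0.47. Slc12a2, the basolateral sodium-potassium-chloride cotransporter that supplies chloride for secretion, was the most abundant at 1.51 in DBZ cells and 1.85 in DMSO cells, a change of -0.29.

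Amino acid carriers of the plasma membrane had a median change of 0.16, with 10 of 15 above 0, against 63.5% of all genes. Past 1.5-fold were 3 towards DBZ and 0 towards DMSO, against 8.5% and 4.4% of all genes. Slc7a2, which carries arginine and other cationic amino acids, had a level of 0.238 in DBZ cells and 0.0734 in DMSO cells, a change of 1.22. Slc43a2, which carries large neutral amino acids, had 0.155 in DBZ cells and 0.0393 in DMSO cells, a change of 1.20. Slc36a4 had a change of 0.71. Slc7a5 had a level of 0.182 in DBZ cells and 0.150 in DMSO cells, and Slc3a2, its partner chain, 0.415 in DBZ cells and 0.417 in DMSO cells. Slc38a2, a sodium-coupled importer of small neutral amino acids, had 1.48 in DBZ cells and 1.47 in DMSO cells.

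The neutral amino acid exchangers Slc1a4 and Slc1a5 went opposite ways over all cells. Slc1a4 stood at 0.624 in DBZ cells and 0.468 in DMSO cells, and Slc1a5 at 0.492 in DBZ cells and 0.658 in DMSO cells. Slc1a4 made up 54.1% of the UMIs of the pair in the DBZ library (exact 95% interval 51.8 to 56.4%) and 39.2% in the DMSO library (36.7 to 41.8%). Within clusters of cells described below, the share was higher in the DBZ library in 5 of 8, and the intervals of the libraries overlapped in all 8. With equal weight to these clusters the changes were 0.29 for Slc1a4 and -0.03 for Slc1a5. Among 24 other genes of the amino acid response driven by ATF4 the median change was -0.14, with 9 above 0 and 15 below. The lowest was Asns, asparagine synthetase, at 0.453 in DBZ cells and 0.834 in DMSO cells. The highest was Pycr1, an enzyme of proline synthesis, at 2.45 in DBZ cells and 0.507 in DMSO cells, a change of 2.16.

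Golgi and endoplasmic reticulum carriers were higher in the DBZ library in 20 of 23 members, with a median change of 0.25. Slc35c1, which brings GDP-fucose into the Golgi for fucosylation, had a level of 0.720 in DBZ cells and 0.264 in DMSO cells, from 1173 and 344 UMIs, a change of 1.30. Slc35b1, which brings ATP into the endoplasmic reticulum, followed at 0.540 in DBZ cells and 0.330 in DMSO cells, a change of 0.63. Slc35f5, a member of uncertain cargo, lay lowest with a change of -0.18.

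Sugar carriers had the lowest median change of the roles, -0.18, with 0 of 9 past 1.5-fold towards DBZ and 3 past it towards DMSO. Slc5a1, the sodium-glucose cotransporter of the brush border, had a level of 0.0806 in DBZ cells and 0.207 in DMSO cells, from 144 and 297 UMIs, a change of -0.98. Slc2a1, the glucose transporter GLUT1, had 0.335 in DBZ cells and 0.569 in DMSO cells, a change of -0.69. Slc5a3, a myo-inositol carrier, had a change of -0.84, but the gene overlaps Mrps6 on the same strand, so its counts are uncertain. Slc37a1, a sugar-phosphate carrier, had a change of -0.55, and Slc50a1 had the highest of the group at 0.28.

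Monocarboxylate carriers were split. Slc16a3, the lactate exporter of glycolytic cells, had a level of 1.32 in DBZ cells and 2.00 in DMSO cells, and Slc16a1, which moves lactate and butyrate, 0.143 in DBZ cells and 0.240 in DMSO cells. Both had a change of -0.58, just short of 1.5-fold. Bsg, the chaperone that brings both proteins to the cell surface, had a level of 19.98 in DBZ cells and 28.3 in DMSO cells, a change of -0.50. Slc16a10 belongs to the same family by sequence but carries aromatic amino acids, and stood at 1.09 in DBZ cells and 0.448 in DMSO cells, a change of 1.20.

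**Figure D2:**
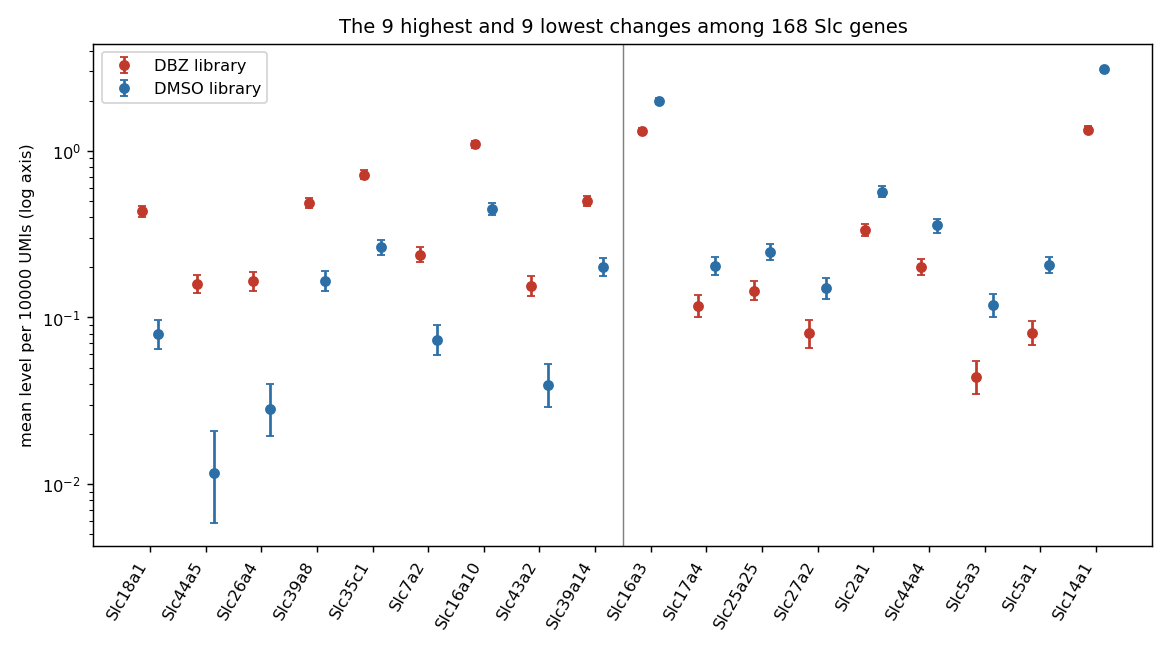
Mean level per 10000 UMIs (log axis) in the DBZ library (red) and DMSO library (blue) of the Slc genes with the 9 highest and 9 lowest changes; bars are exact 95% Poisson intervals of the UMI count, scaled to the level. Slc18a1 stands at 0.433 in DBZ cells and 0.0795 in DMSO cells, and Slc14a1 at 1.34 in DBZ cells and 3.09 in DMSO cells.

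Mitochondrial carriers included the most abundant members, and their 32 members had a median change of 0.05, 2 past 1.5-fold towards DBZ and 1 towards DMSO. The 3 most abundant, Slc25a5, Slc25a3 and Slc25a4, held 21.3% of Slc UMIs in DBZ cells and 24.5% in DMSO cells. Slc25a3, the phosphate carrier, had a level of 4.64 in DBZ cells and 5.20 in DMSO cells. The ADP/ATP carriers Slc25a4 and Slc25a5 went opposite ways over all cells. Slc25a4 stood at 3.34 in DBZ cells and 2.54 in DMSO cells, a change of 0.39, and Slc25a5 at 4.65 in DBZ cells and 5.81 in DMSO cells, a change of -0.32. With equal weight to the clusters compared below, the changes were 0.29 for Slc25a4 and 0.06 for Slc25a5. Slc25a5 has processed pseudogene copies, and how reads shared with them were counted is not stated in the labels.

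The calcium-regulated ATP-magnesium/phosphate carriers Slc25a24 and Slc25a25 also parted. Slc25a24 had a level of 0.326 in DBZ cells and 0.187 in DMSO cells, a change of 0.67. Slc25a25 had 0.145 in DBZ cells and 0.248 in DMSO cells, a change of -0.62. Slc25a12, an aspartate-glutamate carrier, had a change of 0.62.

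Among choline and vitamin carriers the median change was 0.13. Slc44a5, of the choline transporter-like family, had 247 UMIs in DBZ cells and 11 in DMSO cells, a level of 0.159 in DBZ cells and 0.0117 in DMSO cells and a change of 1.76. In the DMSO library 67.9% of its summed level came from 5 cells. Slc44a4 of the same family went the other way, at 0.2003 in DBZ cells and 0.357 in DMSO cells, a change of -0.70. Slc44a1, the widely used choline carrier, had a change of 0.41, and Slc23a3 one of -0.54 from 27 and 60 UMIs in the DBZ and DMSO libraries.

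Fatty acid and organic ion carriers had a median change of 0.08. Slc27a4, a fatty acid transport protein, had a level of 0.179 in DBZ cells and 0.0789 in DMSO cells, a change of 0.83. Slc27a2, of the same family, had 0.0802 in DBZ cells and 0.150 in DMSO cells, a change of -0.62. Slc27a1 had a change of -0.25. Slc17a4, an organic anion carrier of the intestine, had 0.118 in DBZ cells and 0.204 in DMSO cells, a change of -0.60.

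Slc14a1, the facilitative urea transporter, had the lowest change of all members and was the only one at least 2-fold lower in the DBZ library. Its level was 1.34 in DBZ cells and 3.09 in DMSO cells, from 1959 and 3500 UMIs, a change of -1.17. The pooled ratio was -1.14 (95% counting interval -1.22 to -1.06). Among phosphate, calcium and magnesium carriers the changes ran from -0.47 for Slc8b1, the sodium-calcium exchanger of mitochondria, to 0.44 for the phosphate importer Slc20a1, with Slc41a1, a magnesium carrier, at -0.12. Of the 4 genes that bear an Slc symbol without being carriers, Slc9a3r1, a scaffold of brush border proteins, had 0.676 in DBZ cells and 0.870 in DMSO cells.

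Carriers known from absorptive intestine were thinly covered. Slc2a5, Slc26a6 and Slc7a11 were in the table but under 5% of cells in both libraries, and Slc2a2, Slc15a1, Slc9a3, Slc26a3, Slc6a19 and Slc6a14 were not analysed here. Of the 62 Slc genes under the limit, 10 were listed at 0 in all DMSO cells and 6 in all DBZ cells. Over the whole table of 13373 genes, 723 were listed at 0 in all DMSO cells and 282 in all DBZ cells. In each library 0 genes had a value above 0 in exactly 1 cell. Whether a filter per library set such zeros was not tested, so they may not mean absence.

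Genes that work beside the carriers were read from lists drawn up by function. Of 18 channels and aquaporins, 11 were lower in the DBZ library, 6 of them past 1.5-fold, with a median change of -0.26. Of all genes, 4.4% were past 1.5-fold in that direction. Cftr, the chloride channel that works with Slc12a2 in secretion, had a level of 0.0374 in DBZ cells and 0.131 in DMSO cells. Kcnn4, a potassium channel of the same process, had 0.00583 in DBZ cells and 0.0778 in DMSO cells. Of 25 ABC transporters 20 were higher in the DBZ library, 5 past 1.5-fold, against 8.5% of all genes, with a median of 0.26. Wnk1, a kinase that activates Slc12a2 through Stk39, had a change of 0.48, and Stk39 one of -0.66. The 12 partners and chaperones of Slc proteins had a median of 0.00, the 13 ion pump genes one of 0.23, and 25 carriers of Slc families filed under other symbols one of 0.24.

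To place the carriers among cell states, cells were grouped into 12 clusters on variable genes with every Slc gene left out, so that no member shaped the clusters. Only 3 clusters could be named from markers, as proliferating-like (cluster 7), enteroendocrine-like (cluster 9) and Paneth-like (cluster 11). The others are given by their leading genes. The cells of the libraries fell into different clusters. Clusters 4, 5, 6 and 9 took 20.6%, 19.7%, 12.3% and 17.2% of the DBZ cells, and clusters 0 and 1 took 20.04% and 20.9% of the DMSO cells. Levels over clusters are a description with no test. The log2 ratio of the highest to the lowest cluster level had a median of 1.77 over the 59 members named by rule, and was widest for Slc18a1 (4.62) and Slc14a1 (4.35).

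**Figure D3:**
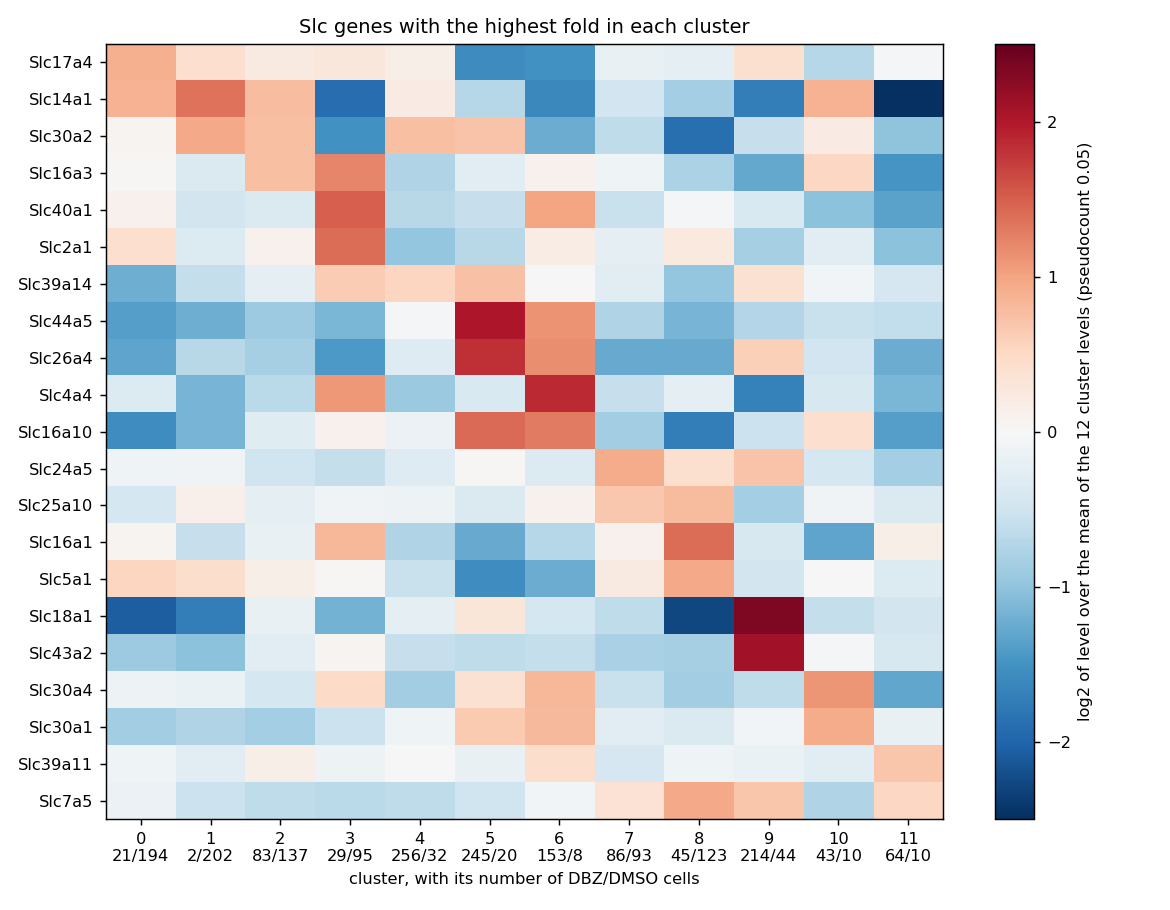
Level of the 2 Slc genes with the highest fold in each cluster, as log2 over the mean of the 12 cluster levels (colour), with the number of DBZ and DMSO cells under each cluster. Slc18a1 and Slc43a2 peak in enteroendocrine-like cluster 9, and Slc44a5 and Slc26a4 in cluster 5.

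Cluster 9, the enteroendocrine-like cells, stood out by Slc18a1. Its level there was 1.36, against 0.135 in all other cells. The contrast appeared in both libraries, at 1.46 against 0.218 in DBZ cells and 0.868 against 0.0420 in DMSO cells. Slc43a2 had the next highest fold there, at 0.555 against 0.0446 in other cells. Slc18a1 was not confined to that cluster. It stood at 0.295 in cluster 5 and 0.194 in cluster 2, against 0.00726 in cluster 8. Tph1, the enzyme that makes serotonin in endocrine cells, had a level of 0.895 in cluster 9 and 0.00444 in cluster 5, so Slc18a1 and Tph1 were not in 1 ratio over these clusters.

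Cluster 5, led by Npy, Tmem255a and Spock2, was the peak of several members higher in the DBZ library. Slc44a5 had a level of 0.475 there, against 0.0427 in other cells, and Slc26a4 had 0.431, against 0.0604. Slc35c1 stood at 1.46 in cluster 5 and 1.08 in cluster 6, and Slc16a10 at 2.19 and 2.02. Both clusters were made up almost wholly of DBZ cells, with 245 DBZ cells and 20 DMSO cells in cluster 5 and 153 DBZ cells and 8 DMSO cells in cluster 6. In cluster 6, led by Nts, Lcn2 and Ly6g6c, Slc4a4, the sodium-bicarbonate cotransporter, had its highest level, 1.58 against 0.263 in other cells.

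Cluster 3, led by Sprr1a, Reg3g and Hmox1 and high in Ero1l and Car9, had the highest levels of several fuel and metal carriers. Slc2a1 stood at 1.31, against 0.385 in other cells, and Slc40a1 at 0.452, against 0.101. Slc16a3 reached 4.08 in cluster 3 and 2.93 in cluster 2, against 0.592 in Paneth-like cluster 11. Slc39a4 had its highest level there too, at 1.09. Car9, a target of hypoxia factors, had its highest level in the same cluster, 5.12 per 10000 UMIs, and Bsg reached 68.4.

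Cluster 8, led by Reg3b, Ceacam1 and Pigr, had the highest levels of Slc16a1, at 0.608 against 0.151 in other cells, and of Slc5a1, at 0.318 against 0.121. The balance of the lactate carriers there differed from that over all cells. Slc16a1 made up 43.1% of Slc16a1 and Slc16a3 UMIs in DBZ cells of cluster 8 and 40.0% in its DMSO cells, against 11.8% over all DBZ cells and 13.7% over all DMSO cells. Lower in the DBZ library over all cells, this share was higher in DBZ cells in 8 of the 8 clusters with at least 20 cells of both libraries.

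Proliferating-like cluster 7 was led by Slc24a5, a potassium-dependent sodium-calcium exchanger, at 0.337 against 0.149 in other cells, and Slc25a10, the dicarboxylate carrier of mitochondria, at 0.471 against 0.253. Slc14a1 was highest in cluster 1, led by Pnliprp2, Egr4 and Cited4, where its level was 5.34, and lowest in Paneth-like cluster 11, at 0.215. Cluster 1 held 2 DBZ cells and 202 DMSO cells. In cluster 0, led by Fosl1, Sfrp5 and Arc, Slc17a4 had its highest level, 0.318. Slc30a2 was the leading carrier of cluster 4, with Cyp2c55 and Cyp2c68 among its leading genes, at 2.84, and Slc39a14 had 0.533 there. Slc30a4, which moves zinc into vesicles, led cluster 10 at 0.709, followed by Slc30a1 at 0.326. In Paneth-like cluster 11 Slc genes held 0.397% of UMIs, against 0.557 to 0.664% in the other clusters, and Slc39a11 and Slc7a5 led with 0.357 and 0.265.

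In 8 clusters there were at least 20 cells of both libraries, so the libraries could be compared within a cluster. The change was above 0 in all 8 for 7 members (4.17%), against 3.53% of all genes, and below 0 in all 8 for 2 members (1.19%), against 1.85%. The shares again lie near the background. By the sign of the change alone, the members higher in all 8 were Slc18a1, Slc39a8, Slc43a2, Slc44a1, Slc25a4, Slc24a5 and Slc12a2. Those lower in all 8 were Slc8b1 and Slc37a1. The counting interval lay above 0 in 5 of the 8 for Slc25a4 and in 4 for Slc18a1, Slc39a8 and Slc12a2. In cluster 0, Slc18a1 had 1 UMI in DBZ cells and 4 in DMSO cells. For the other members named here no interval was computed within clusters.

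**Figure D4:**
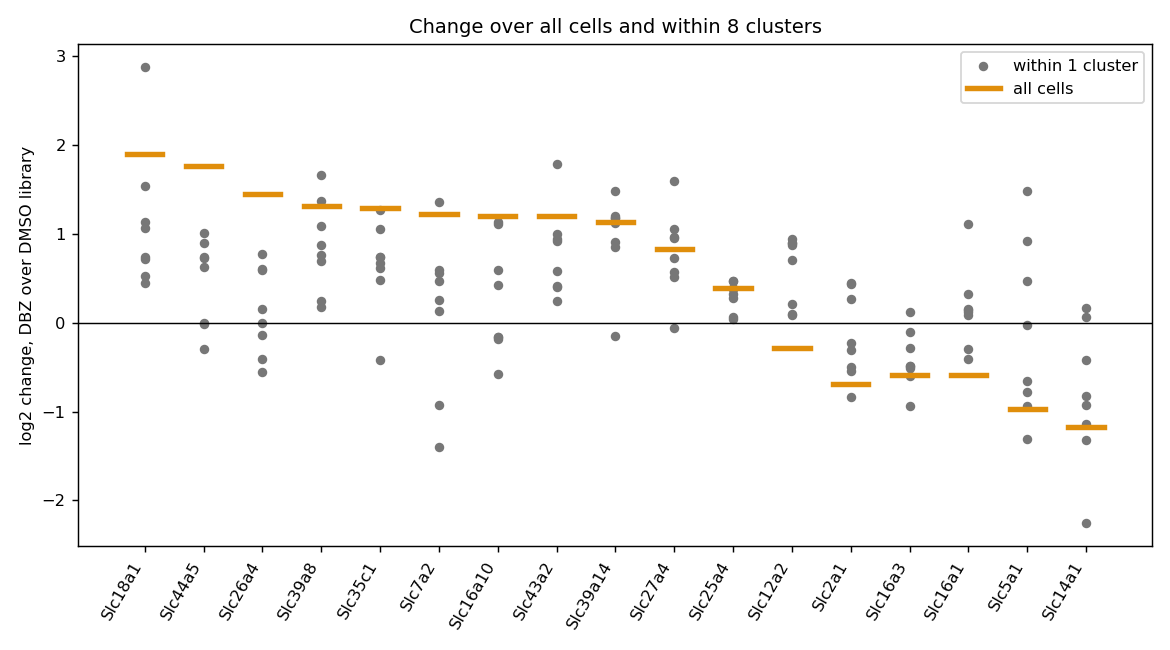
Change between the DBZ and DMSO libraries on the log2 scale for selected Slc genes, over all cells (orange bars) and within each of the 8 clusters with at least 20 cells of both libraries (points). Slc12a2 lies at -0.29 over all cells but between 0.08 and 0.95 within clusters, whereas the points of Slc16a10 lie on both sides of 0.

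Slc12a2 differed in direction between the whole libraries and their clusters. Over all cells it was lower in the DBZ library, by -0.29, but it was higher in DBZ cells in 8 of 8 clusters, by 0.08 to 0.95. In cluster 0 its level was 4.60 in DBZ cells and 2.48 in DMSO cells, and in cluster 3 it was 3.71 in DBZ cells and 1.90 in DMSO cells. In cluster 4 it was 1.60 in DBZ cells and 0.963 in DMSO cells. The counting interval lay above 0 in 4 of the 8. With equal weight to each cluster the change was 0.55. Its lowest level, 0.376, was in enteroendocrine-like cluster 9, with 17.2% of the DBZ cells and 4.55% of the DMSO cells. Its highest levels, 2.79 and 2.69, were in clusters 8 and 0, which took in 3.63% and 1.69% of the DBZ cells and 12.7% and 20.04% of the DMSO cells. With clusters built with the Slc genes it was higher in DBZ cells in 5 of 6, and at a coarser resolution in 5 of 5.

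The highest changes parted in the same view. Slc39a14 was higher in DBZ cells in 7 of 8 clusters and had a change of 0.93 with equal weight to clusters, and Slc39a8 one of 0.84. Slc18a1 had 0.99 and Slc27a4 0.82. Slc43a2 had 0.92 with equal weight to clusters, but 0.48 without the enteroendocrine-like and Paneth-like clusters. Slc16a10 instead had 0.19 with equal weight to clusters, with 4 of 8 above 0, Slc26a4 0.34 and Slc17a5 0.11. By the same weighting Slc44a5 had 0.56, Slc35c1 0.55, Slc7a2 0.34 and Slc30a1 0.07, each below its change over all cells. Among the lower members, Slc14a1 had -0.67, with 6 of 8 clusters below 0, whereas Slc5a1 had -0.15, Slc2a1 -0.13 and Slc16a1 0.03. Equal weights left 6 of 168 members past 1.5-fold towards DBZ, against 2.82% of all genes, and 3 towards DMSO, against 2.29%. Slc41a1 was among those 3 at -0.75.

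The ADP/ATP carrier pair varied by state and library. Slc25a4 made up 39.1% of Slc25a4 and Slc25a5 UMIs in the DBZ library (exact 95% interval 38.3 to 40.0%) and 26.9% in the DMSO library (26.1 to 27.7%). Within clusters the share was 33.0% in DBZ cells and 23.1% in DMSO cells of proliferating-like cluster 7, with intervals apart. In cluster 2 it was 39.2% in DBZ cells and 33.7% in DMSO cells, with intervals that overlap. In cluster 3 it was 26.3% in both, and in cluster 4 it was 42.5% in DBZ cells and 44.8% in DMSO cells. The share was 19.6% in DBZ cells and 16.8% in DMSO cells of cluster 8, against 49.9% in DBZ cells and 43.2% in DMSO cells of cluster 5.

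**Figure D5:**
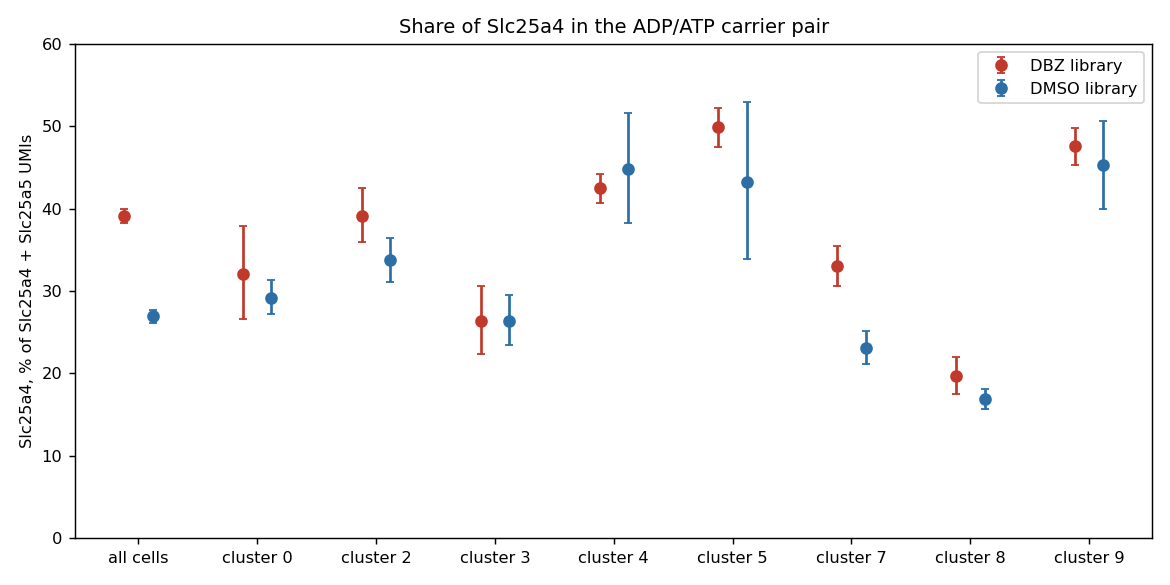
Share of Slc25a4 among Slc25a4 and Slc25a5 UMIs (percent) in the DBZ library (red) and DMSO library (blue), over all cells and in the 8 clusters with at least 20 cells of both; bars are exact 95% binomial intervals. Over all cells the share is 39.1% in DBZ cells and 26.9% in DMSO cells, and cluster 7 is the only cluster shown whose intervals do not overlap.

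Promoter sequence was read for the members that RefSeq start sites cover, 127 of 168, as the 250 bases before each start. The core of the hypoxia factor site, ACGTG on either strand, was found in 23.7% of 173 member windows and 16.6% of all 32851 windows. Member windows had a median GC content of 61.2% and all windows 52.4%. The Notch partner motif TGGGAA was in 17.3% of member windows and 21.6% of all windows. The TCF/LEF motif CTTTGAT was in 4.62% of member windows and 3.21% of all windows, and the AP-1 motif TGANTCA in 4.05% and 6.75%. A match is a description of letters, not a site of binding. The windows of 2 members lower in DBZ cells that peaked in cluster 3 and of 2 members higher in DBZ cells are shown from RefSeq, build GRCm38.p6, with ACGTG or its reverse complement in capitals. In Slc39a8 matches on both strands overlap as the E-box CACGTG, which was in 12.7% of member windows and 6.02% of all windows.
Slc16a3, chr11:120948817-120949066, plus strand: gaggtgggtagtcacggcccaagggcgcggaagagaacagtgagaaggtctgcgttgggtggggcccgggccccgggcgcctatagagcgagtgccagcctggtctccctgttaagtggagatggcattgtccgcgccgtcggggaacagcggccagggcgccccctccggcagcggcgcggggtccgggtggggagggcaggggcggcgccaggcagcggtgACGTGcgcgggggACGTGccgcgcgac
Slc2a1, chr4:119108495-119108744, plus strand: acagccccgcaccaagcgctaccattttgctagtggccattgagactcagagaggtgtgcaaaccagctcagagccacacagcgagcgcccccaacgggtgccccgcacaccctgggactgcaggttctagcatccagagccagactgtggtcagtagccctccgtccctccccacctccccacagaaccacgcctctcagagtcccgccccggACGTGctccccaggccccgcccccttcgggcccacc
Slc39a8, chr3:135825407-135825656, plus strand: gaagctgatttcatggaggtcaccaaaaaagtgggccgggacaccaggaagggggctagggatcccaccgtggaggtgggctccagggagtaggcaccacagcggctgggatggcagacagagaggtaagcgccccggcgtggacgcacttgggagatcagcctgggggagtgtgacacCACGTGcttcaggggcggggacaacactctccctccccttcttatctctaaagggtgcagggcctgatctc
Slc35c1, chr2:92460519-92460768, minus strand: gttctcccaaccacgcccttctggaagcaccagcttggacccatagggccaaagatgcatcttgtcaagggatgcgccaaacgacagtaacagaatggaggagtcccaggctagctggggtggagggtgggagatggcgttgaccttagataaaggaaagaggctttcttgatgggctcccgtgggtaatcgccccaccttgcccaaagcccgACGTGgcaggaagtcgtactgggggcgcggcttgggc
Slc16a3 has a pair of matches close to its start and Slc2a1 has a single one. All 4 windows were chosen because they hold these letters, and the 2 lower members also for their peak in cluster 3. Slc16a3 lies just short of the 1.5-fold limit. Slc27a2 and Slc5a1, lower in DBZ cells past that limit, hold the letters too and are not shown. The directions of the genes shown therefore say nothing about the motif.

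In the GENCODE annotation of GRCm38, Slc18a1 lies on chromosome 8 from 69037711 to 69089235 on the minus strand, overlapping Atp6v1b2 on the other strand. Slc39a8 lies on chromosome 3 from 135825279 to 135888572, overlapping Gm43428 and Gm43429 on the same strand and 4933401H06Rik on the other. Slc44a5 overlaps Gm3076 and Gm42541 on the same strand. Slc39a14 lies on chromosome 14 from 70303469 to 70351425, and Slc35c1 on chromosome 2 from 92452764 to 92460538. Slc5a1 lies on chromosome 5 from 33104219 to 33162870 and Slc2a1 on chromosome 4 from 119108711 to 119137983. The labels do not say whether counting used strand, and how many reads fall in the stretches that these genes share was not measured. The RefSeq starts used for the promoter windows are not always the GENCODE starts. The Slc39a8 window shown above lies wholly inside the GENCODE gene, and the Slc35c1 and Slc2a1 windows run into theirs.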

How the data were processed

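Droplet libraries with UMIs aimed at 3000 cells per sample, with means of 113705 (DBZ) and 115754 (DMSO) reads per cell, per the labels' protocols. Cell Ranger 2.1.1, Seurat and the mouse build mm10 appear per the submitters' processing notes. Annotation and filters are not stated there. The authors deposited natural log values: in each cell exp(value) - 1 summed to 10000, and all 7553435 values above 0 came out as whole UMIs within 0.01. Columns beginning GSI and CTRL were read as DBZ and DMSO from the meaning of the names. Totals were 16168229 DBZ UMIs and 13083018 DMSO UMIs.

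Levels were averaged over cells and compared as log2 ratios with a pseudocount of 0.05. Pooled UMI ratios have exact conditional 95% intervals, shares exact Clopper-Pearson ones. No count model was run, and doublets were not called. Clusters came from scanpy 1.11.5 and igraph 0.11.9 on 2000 variable genes without Slc genes, 30 components, 15 neighbours and Leiden resolution 1. A cluster was named where at least 3 of its top 10 genes were markers of 1 class. Code was tested on simulated data.

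Genes named are the 12 highest and 12 lowest changes, the 8 highest levels, the highest level and extreme changes of each role, the 2 leading carriers of each cluster, the 4 genes on either side of the 5% limit, and known intestinal carriers. Slc1a4, Slc35b1, Slc36a4, Slc39a9, Slc25a12 and the genes outside the family were named after their values were seen. Some genes that the rule names are not reported here. Members and lists were chosen with earlier results of these data known, and 6 members were given a role after the member list was seen. Alternatives varied the pseudocount, weighting, depth, centring, detection limit, cells and clustering.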

Additional observations from a re-analysis of the deposited data

How the results depend on the processing

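No paired analysis was possible because there was 1 library per group and no test. With a pseudocount of 0.01, 31 of 168 members were at least 1.5-fold higher in the DBZ library and 15 lower. Of all genes, 14.4% and 6.59% were. With 0.2 the counts were 9 and 1, against 2.87% and 1.96% of all genes. Pooled UMIs gave 35 and 14, against 16.6% and 7.68%. Equal weight to clusters gave 6 and 3, against 2.82% and 2.29%. Centring on the median gene gave 14 and 14, against 5.59% and 6.64%. The other 6 alternatives (cells thinned to 5000 UMIs, without the deepest 5% of cells, without the 5 highest cells per gene, without the secretory clusters, and detection limits of 10% and 1%) moved neither count by over 1.5 times. Of the 22 named members past 1.5-fold in either direction, 10 were still past it with a pseudocount of 0.2 and 8 with equal weight to clusters. The median range of the 59 named members over clusters was 1.66 with Slc genes among the clustering genes and 1.27 at resolution 0.5. Of 531 recomputed changes of named members, 434 moved by at most 0.5 of the width of their counting interval. The other 97 moved by more, 32 of them with equal weight to clusters. The cause of these moves was not tested. Low levels limit most members, and 1 library per treatment limits all.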
